A study of Mus musculus with 18 samples.

Results

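Transcripts of the mitochondrial chromosome were followed in pancreas and liver of mice with different numbers of intact copies of Otub2, a gene for a deubiquitinase of the OTU family. The genes described are the 10 listed by symbol: the 2 ribosomal RNA genes mt-Rnr1 and mt-Rnr2, and the 8 messenger genes mt-Nd1, mt-Nd2, mt-Nd4, mt-Nd5, mt-Nd6, mt-Co1, mt-Cytb and mt-Atp6. They were taken by name, not by their values, from the 55291 genes of each count table, which hold 37 genes with an mt- symbol in all. All 10 were found in both tables.

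Animals were OTUB2 +/+ (WT), OTUB2 +/- (HET) or OTUB2 -/- (HOM). Their knock-out is described in the labels only as such, with no promoter, Cre, strain, age or treatment given, so it is described here as a change in the whole animal. The 7 liver libraries came from 2 WT and 5 HET, their sex is not stated, and no HOM liver was analysed here. Pancreas gave 11 libraries: 3 WT (1 female, 2 males), 5 HET (2 females, 3 males) and 3 HOM (3 males). A library is called by its genotype and the number its label carries. The labels do not say whether each library is a separate animal, so the p-values measure the spread between these libraries, which may be technical.

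The mitochondrial chromosome is a small circle that is copied and transcribed inside the organelle by proteins encoded in the nucleus. It is read as long precursors from both strands, and these are cut at the transfer RNAs that lie between most of its genes. The products are 2 ribosomal RNAs of the organelle's own ribosome, transfer RNAs, and messengers for core subunits of the respiratory chain: complex I (the mt-Nd genes), complex III (mt-Cytb), complex IV (the mt-Co genes) and ATP synthase (the mt-Atp genes). Liver cells are rich in mitochondria, and pancreatic acinar cells depend on them for the energy of enzyme synthesis and secretion. In bulk tissue, fewer cells of a type and less RNA per cell cannot be told apart.

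Total counts ran from 155201 (WT 1) to 1686234 (HET 5) in liver and from 49502 (HET 9) to 1326541 (HET 11) in pancreas. Otub2 itself had 3 or 4 counts in each WT pancreas, 10 in the 333179 counts of all WT pancreata. It had 1 count in the 2287330 of the HET and 1 in the 384513 of the HOM pancreata. The HET pancreas level was thus not seen between those of WT and HOM. The WT and HET livers had 1 and 5 counts. These counts are too few to check the label of a single library. The liver libraries carried counts for all 12 hepatocyte markers examined, at a summed 100438 to 131339 CPM (the count divided by all counts of the library, times 1000000). In pancreas, 9 of 18 acinar enzyme genes had a count in any library, Prss1, Prss2, Cela2a and Ctrb1 were at 0 in all 11, and the summed level ran from 105 CPM (HET 15) to 165047 CPM (HET 11). HET 11 and HET 16 stood apart. They held 228893 and 192782 CPM of stomach marker genes against 18.4 to 25615 CPM in the other 9 pancreata, and 0.0152% and 0.0252% of counts on olfactory, vomeronasal and taste receptor genes against 0.242% to 0.729%. The tissue label of the pancreas libraries is therefore used as a label, and results that rest on HET 11 and HET 16 are also given without them.

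The counted mitochondrial genes stopped at a sharp border. Along the chromosome, mt-Co2, mt-Atp8, mt-Atp6, mt-Co3, mt-Nd3 and mt-Nd4l follow each other, and all 6 had 0 counts in all 18 libraries. One of the 10 listed genes, mt-Atp6 (subunit a of ATP synthase), lies in this stretch. A count of 0 allows up to 0.721 CPM of it in the 4163558 counts of the 7 livers and up to 0.998 CPM in the 3005022 counts of the 11 pancreata (3 counts of the total, for counting error only). The gene just before the stretch, mt-Co1 (the catalytic subunit of complex IV), was almost empty in liver, with 2 to 10 counts a library. The gene just after it, mt-Nd4, had 17 to 161 counts in every liver. In pancreas this difference between the 2 neighbours was not seen. There mt-Co1 had 97 counts over 7 of 11 libraries (49.3 ± 74.5 CPM, SD) and mt-Nd4 254 counts over 9 of 11 (50.6 ± 51.1 CPM). WT 12 and HOM 19 had 1 and 9 counts on mt-Co1 and 0 on mt-Nd4.

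**Figure D1:**
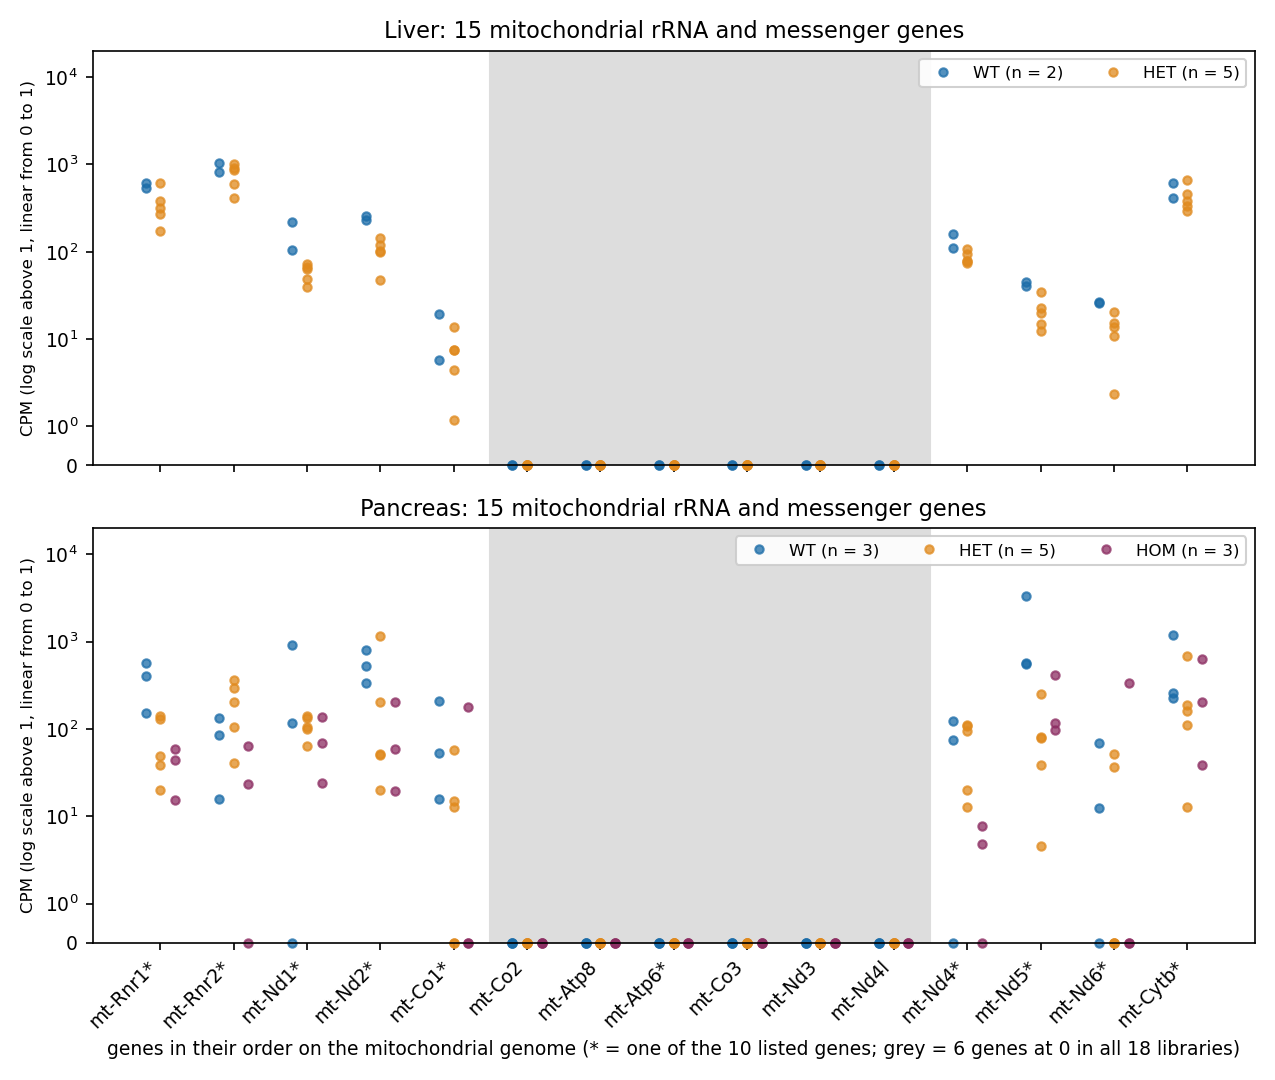
Level in CPM (vertical axis, logarithmic above 1 and linear from 0 to 1) of the 15 ribosomal RNA and messenger genes of mitochondrial DNA, in their order on the chromosome (horizontal axis). Each point is 1 library, coloured by genotype, and asterisks mark the 10 listed genes. The 6 genes on the grey ground are at 0 in all 18 libraries of both tissues.

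The same stretch has a near-identical copy in the nuclear genome. Sequences of the mitochondrial genes were aligned to the other transcripts of GENCODE mouse release M21 (build mm10). On the minus strand of chromosome 1, between positions 24611535 and 24616197, lie 7 gene models annotated as unprocessed pseudogenes that match 7 mitochondrial genes at 99.71% to 100% identity. The matched bases span chrM 6390 to 11042, or 4653 bases, and hold 2 mismatches in all. The copies are Gm29216 (the last 483 of 1545 bases of mt-Co1), Gm28661 (mt-Co2), Gm10925 (mt-Atp6), Gm28437 (mt-Co3), Gm28438 (mt-Nd3), Gm10222 (mt-Nd4l) and Gm28439 (the first 876 of 1378 bases of mt-Nd4). No such gene model was found for mt-Atp8, which lies between mt-Co2 and mt-Atp6 and overlaps the latter.

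The library method, a bulk form of MARS-seq, reads the 3′ ends of polyadenylated RNA, so the last bases of each gene matter most for its count. For mt-Atp6 (chrM 7927 to 8607, plus strand, a protein-coding gene without introns) 678 of 681 bases are in the copy, and the last 100 shared bases are printed to show that no base separates them (chrM 8505 to 8604, plus strand; chromosome 1 24613974 to 24614073, minus strand; mm10). Bases that differ would be in capitals, and there are none:
mt-Atp6: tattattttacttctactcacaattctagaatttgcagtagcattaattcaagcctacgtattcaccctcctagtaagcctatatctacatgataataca
Gm10925: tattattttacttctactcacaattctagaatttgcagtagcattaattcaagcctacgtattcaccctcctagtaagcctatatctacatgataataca

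For mt-Co1 (chrM 5328 to 6872, plus strand) 31.3% of the gene is in the copy, and that part is its 3′ end. The only substitution over the 483 shared bases is A1066T, counted from the first base of the gene with the mitochondrial base first. It lies outside the last 100 bases, printed here to show the same identity (chrM 6773 to 6872, plus strand; chromosome 1 24615706 to 24615805, minus strand):
mt-Co1: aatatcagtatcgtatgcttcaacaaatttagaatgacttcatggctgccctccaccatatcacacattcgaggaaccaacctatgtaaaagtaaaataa
Gm29216: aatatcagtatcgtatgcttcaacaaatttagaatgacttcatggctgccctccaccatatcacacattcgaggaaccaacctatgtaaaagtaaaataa

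In mt-Nd4 (chrM 10167 to 11544, plus strand) the order is reversed, with the 5′ part shared and the last 502 bases free of the copy. The 100 bases around the point where the gene model of the copy ends are printed with the 50 shared bases in capitals (chrM 10993 to 11092, plus strand):
mt-Nd4: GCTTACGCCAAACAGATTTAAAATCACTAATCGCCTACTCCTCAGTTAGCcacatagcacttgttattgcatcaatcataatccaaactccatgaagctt

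The remaining members had no near-identical match. The closest nuclear gene model was 96.67% identical for mt-Nd2, 95.18% for mt-Nd5, 93.64% for mt-Nd6, 92.91% for mt-Cytb, 88.38% for mt-Rnr2 and 83.97% for mt-Nd1, and no match of at least 100 bases at 80% identity was found for mt-Rnr1. The end of mt-Cytb shows how far such an older copy has drifted. Its 6 differences from Gm11410 are in capitals over 100 bases (chrM 15188 to 15287, plus strand; chromosome 4 80005032 to 80005131, plus strand):
mt-Cytb: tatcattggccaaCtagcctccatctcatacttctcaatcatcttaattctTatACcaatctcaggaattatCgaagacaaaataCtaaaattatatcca
Gm11410: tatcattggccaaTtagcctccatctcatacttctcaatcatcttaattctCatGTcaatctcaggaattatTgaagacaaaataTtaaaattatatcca

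The chromosome 1 gene models did not hold the missing counts. Together they had 7 counts in the 7 livers, spread over 4 models, and 17 counts in the 11 pancreata, all on Gm28438 and all in 1 library. The 20 matching gene models of lower identity had 33 counts in the livers and 46 in the pancreata. Of these, Gm13341 on chromosome 2, 95.91% identical to mt-Co2, had 24 over all 7 livers and 26 over 3 of 11 pancreata. The sources used here do not give how reads that match more than 1 place were treated, so the 0 of mt-Atp6 and the low level of mt-Co1 in liver are uncertain as levels of these RNAs. The part of the nuclear copies in these values was not tested. Strand use is also not given. Reads from mt-Nd5 (chrM 11742 to 13565, plus strand) and mt-Nd6 (chrM 13552 to 14070, minus strand) cannot be told apart over the bases they share, if strand was not used.

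In liver, the ribosomal RNA of the large subunit, mt-Rnr2 (chrM 1094 to 2675), was the member with most counts in all 7 libraries. It stood at 817 and 1044 CPM in WT and at 416 to 1016 CPM (median 865) in HET. The RNA of the small subunit, mt-Rnr1 (chrM 70 to 1024), stood at 535 and 610 CPM in WT and at 172 to 620 CPM (median 313) in HET. Both ranges overlapped between the genotypes.

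Among the liver messengers, mt-Cytb (chrM 14145 to 15288), the cytochrome b of complex III, led in all 7 libraries, with 41.2% to 65.9% of the messenger counts. Its mean over the 7 livers was 450 ± 138 CPM (SD). The complex I subunits followed at 143 ± 74.7 CPM for mt-Nd2, 101 ± 30.1 CPM for mt-Nd4, 87.7 ± 61.5 CPM for mt-Nd1, 27.2 ± 13.0 CPM for mt-Nd5 and 16.4 ± 8.53 CPM for mt-Nd6 (SD, n = 7), and mt-Co1 was last of those counted at 8.51 ± 6.13 CPM. Neighbours in this order did not separate beyond their spread among mt-Nd2, mt-Nd4 and mt-Nd1, or among mt-Nd5, mt-Nd6 and mt-Co1. Since a count stands for a 3′ end, these levels are not divided by gene length.

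In pancreas the order changed from library to library. The leading messenger was mt-Nd5 in WT 11, WT 16 and HOM 10, mt-Cytb in WT 12, HET 9, HET 11, HET 16 and HOM 19, and mt-Nd2 in HET 10, HET 15 and HOM 21. A single gene took 22.2% (HET 16) to 82.7% (HOM 10) of the messenger counts. Over the 11 pancreata the means were 507 ± 969 CPM for mt-Nd5, 338 ± 358 CPM for mt-Cytb, 312 ± 374 CPM for mt-Nd2 and 165 ± 256 CPM for mt-Nd1 (SD), so each SD exceeded its mean. The counts behind these values were few: HET 9 had 48 counts on the 10 genes and HOM 19 had 76, where 3 counts equal 60.6 and 59.2 CPM.

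The 10 genes together took 0.108% to 0.284% of all counts in liver and 0.0614% to 0.640% in pancreas. The messenger sum was 492 to 1263 CPM in liver and 431 (HET 11) to 5702 CPM (WT 11) in pancreas. The ribosomal RNA sum was 588 to 1579 CPM in liver and 38.8 (HOM 21) to 702 CPM (WT 11) in pancreas. The tissues therefore overlapped in their messengers, while for ribosomal RNA WT 11 was the only pancreas library that reached the liver range. Tissue and table cannot be told apart, because the authors made 1 table for each tissue.

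**Figure D2:**
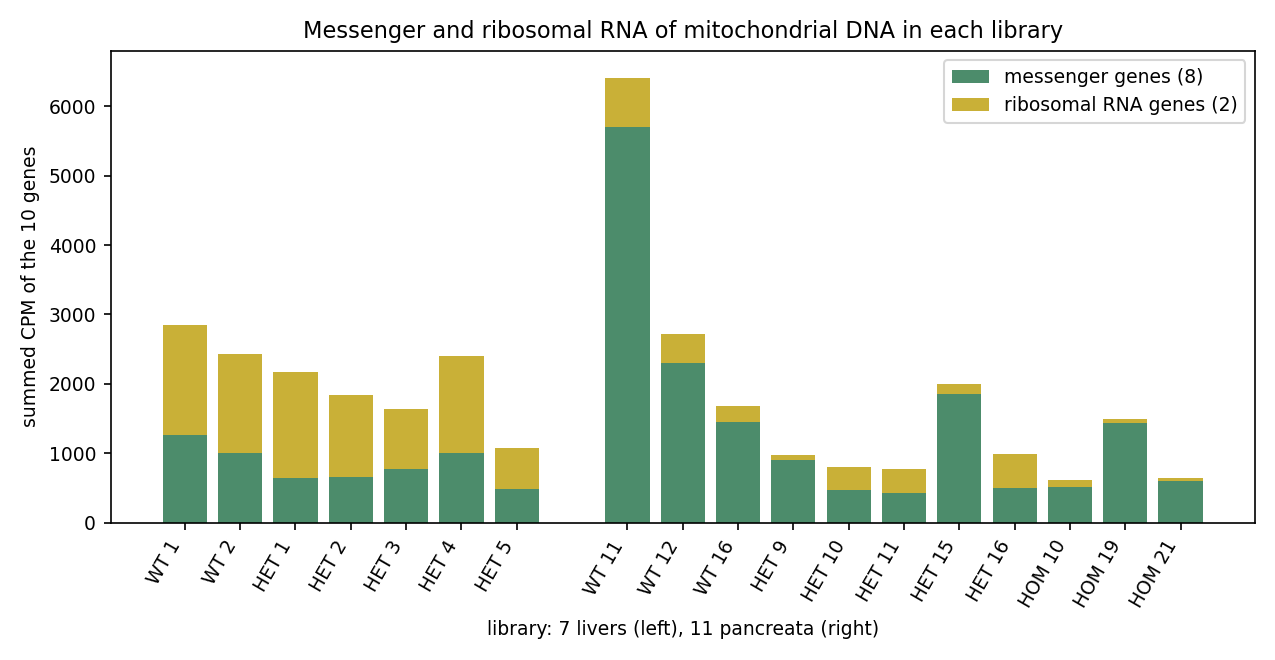
Summed CPM (vertical axis, from 0) of the 8 messenger genes and the 2 ribosomal RNA genes, stacked for each of the 18 libraries (horizontal axis, livers left and pancreata right). WT 11 has the tallest bar, with 5702 CPM of messengers, and the ribosomal RNA segments are taller than the messenger segments in all 7 livers.

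The share of ribosomal RNA in the member counts separated most pancreata from the livers. It is a share of counts from a method that reads polyadenylated RNA. It need not be the balance of these RNAs in the tissue, and how the ribosomal counts arose was not tested. Ribosomal RNA made up 53.0% to 70.0% of the member counts in the 7 livers (59.2% ± 6.03, SD). In pancreas the mean share was 13.6% ± 2.38 over the 3 WT, 30.0% ± 21.2 over the 5 HET and 9.17% ± 7.26 over the 3 HOM libraries (SD). The HET pancreata were of 2 kinds. HET 9 and HET 15 had 6.25% (95% Wilson interval 2.15% to 16.8%) and 7.67% (5.25% to 11.1%), in the range of WT and HOM, whereas HET 10, HET 11 and HET 16 had 41.3% (30.0% to 53.6%), 44.5% (41.5% to 47.6%) and 50.1% (46.3% to 53.9%). These intervals cover counting error only. The share does not depend on how a library is scaled, and per kilobase of gene it ran from 49.3% to 67.4% in liver and from 3.80% to 47.7% in pancreas.

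HET 11 and HET 16, with their stomach markers and the lowest shares of receptor genes, were among the 3 pancreata of high ribosomal RNA share. HET 10 was not like them in these markers, at 1831 CPM of stomach genes and 0.242% on receptor genes. Without HET 11 and HET 16 the 9 pancreata ran from 3.95% to 41.3%, with a median of 11.0%. The part of other tissue in the share was not tested.

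**Figure D3:**
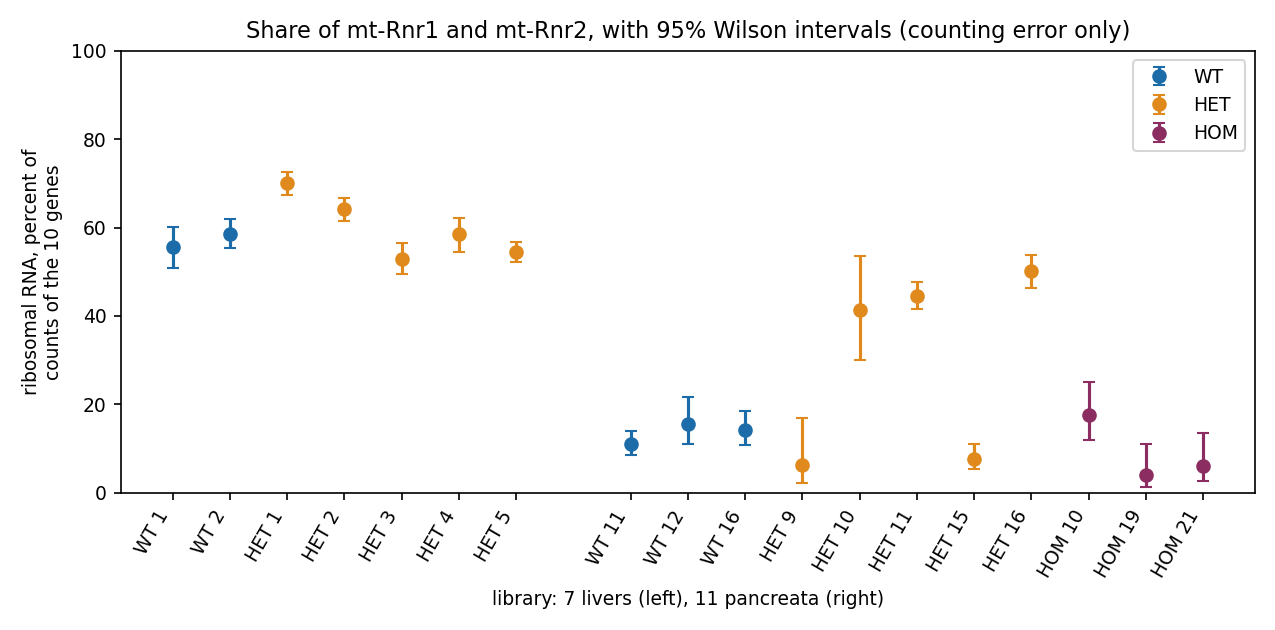
Share of mt-Rnr1 and mt-Rnr2 in the counts of the 10 genes (vertical axis, percent) in each library (horizontal axis, livers left and pancreata right). Points are single libraries coloured by genotype and bars are 95% Wilson intervals for counting error. All livers lie at 53.0% or more, HET 10, HET 11 and HET 16 lie between 41.3% and 50.1%, and the other 8 pancreata lie at 17.5% or less.

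The make-up of the ribosomal RNA also differed. Of the ribosomal counts, mt-Rnr2 took 57.3% to 73.4% in the livers and 59.04% to 88.5% in the HET pancreata. It took 3.70% to 35.6% in the WT pancreata, where mt-Rnr1 led with 567, 410 and 154 CPM in WT 11, WT 12 and WT 16. In HOM 10, HOM 19 and HOM 21 it had 13 of 22, 0 of 3 and 3 of 5 ribosomal counts, so HOM 10 and HOM 21 lay inside the HET range and HOM 19 below it. The shares of HET 9, HET 15, HET 10 and WT 12 also rest on few ribosomal counts, 3, 25, 26 and 27.

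The first comparison asks whether losing 1 copy of Otub2 goes with a change of mitochondrial transcripts in liver. All 8 members that passed the expression filter (edgeR's filterByExpr, which drops genes with too few counts to test) had lower fitted values in HET than in WT (median log2 fold change −0.78, against 0.03 over the 4803 genes tested, of which 47.8% were lower). None passed the threshold: edgeR's quasi-likelihood test called 0 of 8 members, and 0% of all genes tested, at an adjusted p of 0.05, while 2 of 8 members and 10.3% of all genes had an unadjusted p below 0.05. DESeq2 called 0 members and 16 of all genes. Among the 8, mt-Nd6 passed the filter only through the WT livers, so the filter itself favoured its direction.

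The complex I subunits mt-Nd1 and mt-Nd2 had the largest differences. For mt-Nd1 (chrM 2751 to 3707), a membrane subunit near the quinone site, WT 1 and WT 2 had 219 and 105 CPM and HET 1 to HET 5 had 48.4, 66.5, 63.6, 71.8 and 39.7 CPM. Both WT livers lay above all 5 HET livers, and WT 1 lay farther above WT 2 than any HET liver lay below it. The fitted level in HET was 2.58-fold lower (log2 fold change −1.37 ± 0.40 SE, edgeR adjusted p = 0.243, n = 2 and 5). Without WT 1 the log2 fold change was −0.70.

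For mt-Nd2 (chrM 3914 to 4951), another membrane subunit of complex I, WT 1 and WT 2 had 232 and 254 CPM and HET 1 to HET 5 had 98.7, 121, 101, 144 and 48.0 CPM. The groups did not overlap. The gap between them, from 144 to 232 CPM, was wider than the distance between the 2 WT livers and narrower than the range of the HET livers. The fitted level was 2.26-fold lower in HET (log2 fold change −1.17 ± 0.38 SE, edgeR adjusted p = 0.294). Leaving out each liver in turn gave −1.31 to −0.97.

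The 3 other complex I messengers, mt-Nd4, mt-Nd5 and mt-Nd6, were also lower in CPM in all 5 HET than in both WT livers. That makes 5 of 8 members lower with no overlap, against 11.1% of all genes tested, and 0 of 8 higher with no overlap, against 6.95%. Their means were 86.8 ± 14.2 against 135 ± 36.1 CPM for mt-Nd4, 20.9 ± 8.68 against 43.0 ± 3.00 CPM for mt-Nd5 and 12.6 ± 6.66 against 26.0 ± 0.351 CPM for mt-Nd6 (SD, HET n = 5, WT n = 2). The WT values rested on 7 and 14 counts for mt-Nd5 and on 4 and 9 counts for mt-Nd6, so counting error is larger than the WT SD shows. Only the WT livers, at 25.8 and 26.3 CPM, reached the level the filter asks for in mt-Nd6, and HET reached at most 20.5 CPM. The place of mt-Nd6 among the 5 of 8 was thus favoured by the filter. For mt-Nd4 the groups were close, with 107 CPM in HET 3 and 110 CPM in WT 1 (17 counts). With CPM divided by the TMM factors of the fit (edgeR's correction of the library total) these became 117 and 106, so mt-Nd4 overlapped, and the other 4 genes did not. Their edgeR adjusted p-values were 0.600, 0.586 and 0.685.

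The members outside complex I overlapped between the genotypes. The log2 fold changes were −0.18 ± 0.33 for mt-Cytb, −0.61 ± 0.37 for mt-Rnr1 and −0.20 ± 0.33 for mt-Rnr2 (SE), with edgeR adjusted p-values of 0.892, 0.593 and 0.875. The estimates for mt-Cytb and mt-Rnr2 turned positive, at 0.20 and 0.07, without WT 1. For mt-Co1, with 2 to 10 counts a liver and below the filter, the unfiltered fit gave −0.49 ± 1.08 (SE, edgeR adjusted p = 0.815). No fold change exists for mt-Atp6, which had 0 counts in both tissues.

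**Figure D4:**
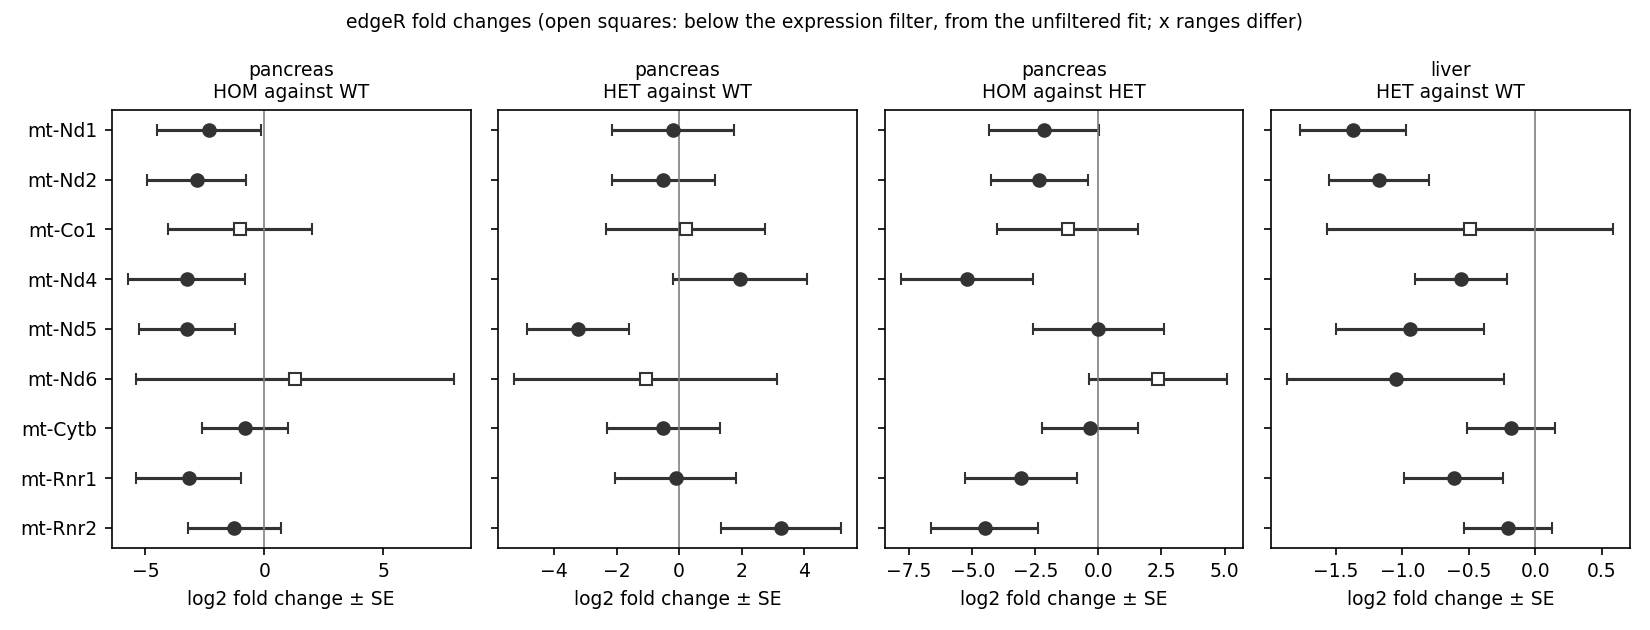
Log2 fold changes from edgeR (horizontal axis, ranges differ between panels) with 1 standard error for 9 of the 10 genes (rows) in the 4 comparisons (panels); mt-Atp6 has no counts. Filled circles passed the expression filter and open squares come from the unfiltered fit. In liver the 8 filled circles lie below 0, and mt-Nd1 and mt-Nd2 lie farthest from it.

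Library depth moved with these values in liver. In order of total counts, the messenger sum was 1263 CPM in WT 1 (155201 counts), 998 in HET 4 (264660), 1007 in WT 2 (342609), 767 in HET 3 (456180), 650 in HET 1 (537247), 657 in HET 2 (721427) and 492 in HET 5 (1686234). The 2 WT livers were thus the first and the third of the 7 by fewest counts, and HET 4, which lies between them in depth, had nearly the messenger sum of WT 2. For mt-Nd1 and mt-Nd2 HET 4 stood at 71.8 and 144 CPM, below the 105 and 254 CPM of WT 2. Without the 2 deepest livers, HET 2 and HET 5, the log2 fold changes were −1.28 ± 0.42 for mt-Nd1 and −1.02 ± 0.33 for mt-Nd2 (SE, edgeR adjusted p = 0.244 and 0.239), and that of mt-Cytb was 0.04. The part of depth in the difference was not tested further.

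Other library measures also separated the liver genotypes. The 5 nuclear long non-coding RNAs listed, Malat1, Neat1 and Xist among them, summed to 554 and 1903 CPM in WT 1 and WT 2 and to 177 to 356 CPM in HET. A list of 12 predicted genes called satellite-like, Gm10800 and Gm10801 among them, stood at 1765 and 2388 CPM in WT and at 0 to 1444 CPM in HET. Receptor genes of smell and taste took 0.00966% and 0.0123% of counts in WT and 0.000652% to 0.00670% in HET. In all 3 measures both WT livers lay above all 5 HET livers, as they did for the complex I messengers. Their part in the difference was not tested.

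**Figure D5:**
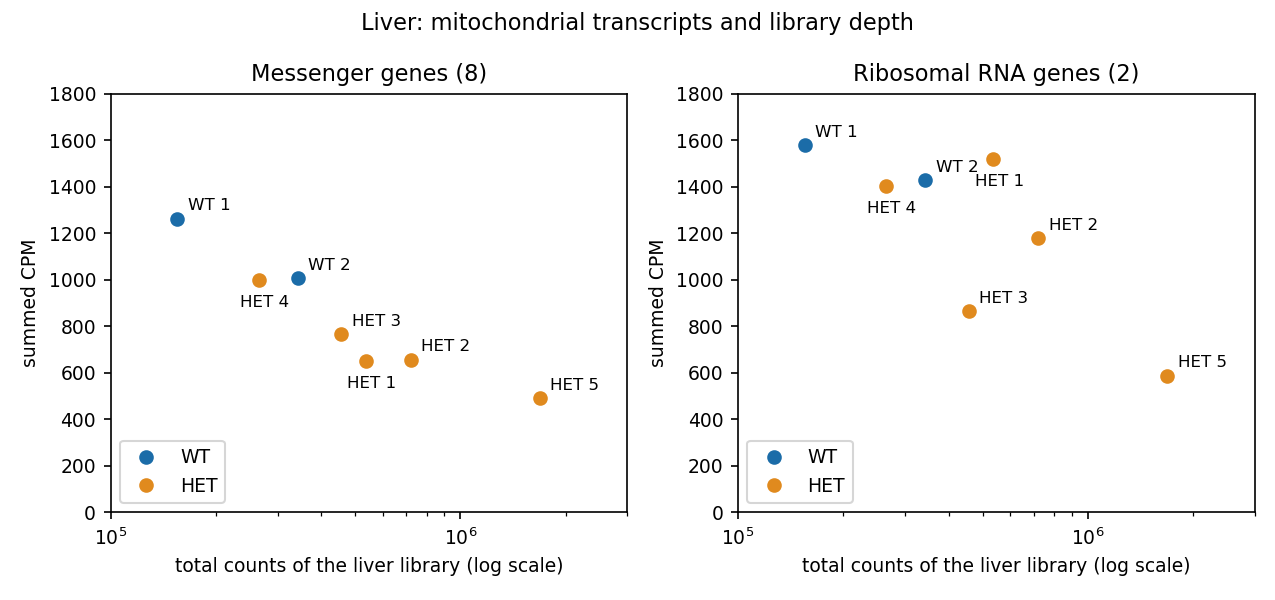
Summed CPM (vertical axes, from 0) of the 8 messenger genes (left) and the 2 ribosomal RNA genes (right) against the total counts of each liver library (horizontal axes, logarithmic). Points are the 2 WT and 5 HET libraries. The messenger sum is highest in WT 1, the library of fewest counts, and lowest in HET 5, the library of most counts.

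Genes encoded in the nucleus did not follow the same direction in liver. Of 31 tested nuclear genes for complexes III and IV and ATP synthase, 27 had higher and 4 lower fitted values in HET (median log2 fold change 0.48). Of 7 nuclear core subunits of complex I, 5 were higher and 2 lower (median 0.40). No gene of either group passed edgeR's threshold. Cox6c, a small subunit of complex IV, stood at 690 ± 87.3 CPM in HET and 367 ± 27.8 CPM in WT (log2 fold change 1.01 ± 0.28 SE, edgeR adjusted p = 0.243). Ndufv1, which holds the NADH site of complex I, stood at 462 ± 121 and 292 ± 42.1 CPM (0.76 ± 0.33 SE, adjusted p = 0.455).

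Genes for the upkeep and reading of mitochondrial DNA showed no shared direction in liver. Of 5 tested genes for its replication and transcription, 2 were higher and 3 lower (median −0.13), and of 10 tested genes for processing and stability of its RNA, 6 were higher and 4 lower (median 0.15), with 0 called by edgeR. Polrmt, the mitochondrial RNA polymerase, stood at 13.7 ± 8.86 CPM in HET and 28.0 ± 30.5 CPM in WT (edgeR adjusted p = 0.683). Mtpap, which adds poly(A) tails to mitochondrial RNA, stood at 27.8 ± 23.3 and 5.84 ± 8.26 CPM (adjusted p = 0.548).

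In pancreas, HOM was set against WT to compare 0 with 2 intact copies. All 7 members that passed the filter had lower fitted values in HOM (median log2 fold change −2.84, against 0.19 over the 3719 genes tested, of which 46.2% were lower). The edgeR test called 0 of 7 members and 0% of all genes. No member had an unadjusted p below 0.05, against 4.95% of all genes, and DESeq2 called 0 members and 12 of all genes. In mt-Nd4, mt-Rnr1 and mt-Rnr2 no HOM library reached the level the filter asks for. These genes passed only through WT or HET libraries, so the filter itself favoured lower HOM values for them. The filter also dropped mt-Nd6, and in the unfiltered fit 8 of 9 members were lower, with mt-Nd6 higher. The biological coefficient of variation, the spread between libraries of a group beyond counting error, was 166% in the pancreas fit and 35.4% in liver.

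For mt-Nd2, mt-Nd5 and mt-Rnr1, 3 of 7 members, all 3 HOM pancreata lay below all 3 WT pancreata, against 2.9% of all genes tested. In 0 of 7 did all HOM lie above all WT, against 8.31%. Of the 3, mt-Rnr1 passed the filter through no HOM library, so the filter favoured its direction. For mt-Nd5 (a proton-pumping membrane subunit of complex I) WT 11, WT 12 and WT 16 had 3362, 567 and 562 CPM and HOM 10, HOM 19 and HOM 21 had 419, 98.7 and 117 CPM. WT 11 was far above the others, and the gap between the groups lay between 419 and 562 CPM. The fit gave a log2 fold change of −3.25 ± 2.03 SE (edgeR adjusted p = 1, n = 3 and 3), and −2.36 without WT 11.

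For mt-Nd2 the WT pancreata had 813, 520 and 340 CPM and the HOM pancreata 19.5, 59.2 and 202 CPM (−2.84 ± 2.09 SE, edgeR adjusted p = 1). The 3 HOM values rested on 4, 3 and 26 counts. For mt-Rnr1 the WT pancreata had 567, 410 and 154 CPM and the HOM pancreata 43.9, 59.2 and 15.5 CPM, from 9, 3 and 2 counts (−3.18 ± 2.21 SE, edgeR adjusted p = 1). In all 3 genes WT 11 was the highest WT library. The HOM values of mt-Nd5 rested on more counts, 86, 5 and 15.

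The other 4 members overlapped between HOM and WT. The estimate for mt-Nd1 was −2.33 ± 2.19 SE and turned to 1.29 without WT 11, which had 924 CPM where WT 12 was at 0 and WT 16 at 117. The estimate for mt-Cytb was −0.82 ± 1.81 SE and turned to 0.52 without WT 12, which had 1197 CPM where WT 11 and WT 16 had 259 and 228. For mt-Nd4 the HOM pancreata had 2 counts in all, and for mt-Rnr2 they had 16 (−3.27 ± 2.46 and −1.26 ± 1.97 SE). The edgeR adjusted p was 1 for each of the 4. Below the filter, mt-Nd6 had 17 counts in HOM 19 and 0 in HOM 10 and HOM 21, and mt-Co1 had 9 in HOM 19 and 0 in the same 2 libraries. The unfiltered fit gave 1.29 ± 6.70 for mt-Nd6 and −1.02 ± 3.01 for mt-Co1 (SE, edgeR adjusted p = 1 for both).

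Markers of stomach, acinar and duct cells separated HOM from WT in pancreas. Stomach markers summed to 5080, 16837 and 6703 CPM in HOM 10, HOM 19 and HOM 21 and to 24.6, 31.5 and 95.5 CPM in WT 11, WT 12 and WT 16. Of the 14 stomach genes, 11 had a count in HOM and 2 in WT. Acinar enzyme genes stood at 4232, 15988 and 4210 CPM in HOM and 1158, 173 and 154 CPM in WT, with 3 and 6 of 18 genes counted. Duct markers stood at 702 to 1452 CPM in HOM, with 6 of 7 genes counted, and at 24.6 to 110 CPM in WT, with 3 of 7. In all 3 lists every HOM pancreas lay above every WT pancreas, and their part in the lower mitochondrial values of HOM was not tested.

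Counts on the 12 satellite-like genes moved with the mitochondrial messengers in WT. Their summed level was 65197, 57228 and 15910 CPM in WT 11, WT 12 and WT 16, against 3425 to 15751 CPM in HOM and 216 to 16297 CPM in HET. The messenger sum was 5702, 2300 and 1443 CPM in the same WT libraries, in the same order. Their part in the difference was not tested.

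HET against WT pancreas compares 1 with 2 intact copies. Of the 7 members, 5 had lower and 2 higher fitted values in HET (median −0.18, against −0.20 over all genes, of which 53.8% were lower). The edgeR test called 0 of 7 members and 0% of all genes. One member, mt-Nd5, and 13.9% of all genes had an unadjusted p below 0.05, and DESeq2 called 0 members and 199 of all genes. Without HET 11 and HET 16, 5 members passed the filter and all 5 had lower fitted values in HET, while the median over all genes was −0.03. The 2 members that no longer passed, mt-Nd4 and mt-Rnr2, were the 2 with higher fitted values before. The same 5 were lower in both fits, so the change from 5 of 7 comes from the filter. None of the 5 was called.

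The level of mt-Nd5 was 80.8, 38.4, 4.52, 252 and 79.0 CPM in HET 9, HET 10, HET 11, HET 15 and HET 16, below the 562 to 3362 CPM of WT in all 5 (log2 fold change −3.24 ± 1.63 SE, edgeR adjusted p = 0.343), and −3.44 ± 1.37 without HET 11 and HET 16. The level of mt-Rnr1 was also lower in all 5, at 20.2 to 142 CPM, which makes 2 of 7 members lower with no overlap, against 3.58% of all genes tested, and 0 of 7 higher, against 0.753%. Of the HET libraries only HET 11 and HET 16 reached the filter's level in mt-Rnr1, which passed the filter through WT. Its fitted log2 fold change was −0.11 ± 1.94 SE and turned to 0.21 with DESeq2 size factors. The TMM factors were 0.172 for HET 11, 0.257 for HET 16 and 1.20 to 1.55 elsewhere in pancreas. With CPM divided by them mt-Rnr1 overlapped while mt-Nd5 did not. The cause of the change of sign was not tested. Without those libraries it was −3.30 ± 2.38 SE. The level of mt-Rnr2 was 40.4 to 368 CPM in HET and 15.8 to 135 CPM in WT (3.25 ± 1.92 SE, edgeR adjusted p = 0.5002), with overlap.

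The other members overlapped between HET and WT pancreas. The log2 fold change was 1.94 ± 2.14 for mt-Nd4 (SE, edgeR adjusted p = 0.885). It was −0.18 ± 1.95 for mt-Nd1, −0.50 ± 1.66 for mt-Nd2 and −0.50 ± 1.80 for mt-Cytb, and the unfiltered fit gave −1.06 ± 4.21 for mt-Nd6 and 0.21 ± 2.55 for mt-Co1 (SE, edgeR adjusted p = 1 for these 5). Each of these errors exceeds its estimate, and the signs of mt-Nd1, mt-Nd2, mt-Cytb and mt-Co1 changed under some alternatives.

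With total counts in place of TMM the median over all genes of the log2 fold change went from 0.19 to 0.01 in HOM against WT, from −0.20 to −0.61 in HET against WT and from 0.35 to 0.65 in HOM against HET. DESeq2 size factors moved it to 0.04 and 0.23 in the first and the last of these. The 7 members stayed lower in HOM than in WT under both. In HET against WT, 5 of 7 were lower with total counts and 3 of 7 with DESeq2 size factors.

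HOM against HET pancreas compares 0 with 1 intact copy and shares its libraries with the comparisons above. All 7 members had lower fitted values in HOM (median −2.34, against 0.35 over all genes, of which 41.1% were lower), and 5 of 7 with scaling by total counts, where mt-Nd5 and mt-Cytb were higher. The edgeR test called 0 of 7 members and 0% of all genes, while 2 of 7 members and 11% of all genes had an unadjusted p below 0.05. DESeq2 called 0 members and 62 of all genes. As above, mt-Nd4, mt-Rnr1 and mt-Rnr2 passed the filter through no HOM library, so the filter itself favoured lower HOM values for them. It also dropped mt-Nd6, which was higher in HOM in the unfiltered fit.

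The 2 members with an unadjusted edgeR p below 0.05 were mt-Nd4 and mt-Rnr2. For mt-Nd4 the HET pancreata had 20.2, 12.8, 109, 111 and 93.9 CPM in HET 9, HET 10, HET 11, HET 15 and HET 16, and the HOM pancreata 4.88, 0 and 7.77 CPM. All HOM lay below all HET, in this 1 of 7 members against 0.484% of all genes tested, but HET 9 and HET 10 rested on 1 count each (log2 fold change −5.21 ± 2.62 SE, edgeR adjusted p = 0.437). No member was higher in all HOM than in all HET, against 6.21% of all genes. For mt-Rnr2 the HET pancreata had 40.4, 295, 204, 105 and 368 CPM and the HOM pancreata 63.4, 0 and 23.3 CPM, with overlap (−4.51 ± 2.10 SE, edgeR adjusted p = 0.345). Without HET 11 and HET 16 neither gene passed the filter, and of the 5 members that did, 3 were lower in HOM.

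The remaining members overlapped between HOM and HET. The log2 fold changes were −2.15 ± 2.18 for mt-Nd1, −2.34 ± 1.94 for mt-Nd2, −0.0075 ± 2.59 for mt-Nd5, −0.32 ± 1.89 for mt-Cytb and −3.07 ± 2.22 for mt-Rnr1 (SE, edgeR adjusted p = 0.811 to 0.9998). For mt-Rnr1 the estimate was −0.20 without HET 11 and HET 16. The unfiltered fit gave 2.35 ± 2.75 for mt-Nd6, whose HOM counts all lie in HOM 19, and −1.22 ± 2.81 for mt-Co1.

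The nuclear genes of the respiratory chain differed far more between pancreas libraries than the mitochondrial ones. Summed over complexes III and IV and ATP synthase they stood at 49.3 to 536 CPM in WT and 1121 to 1204 CPM in HOM. In HET they stood at 23059 and 21799 CPM in HET 11 and HET 16 and at 603 to 4424 CPM in the other 3, whereas livers held 17875 to 23173 CPM. Of 11 tested genes of this group, 10 had higher fitted values in HOM than in WT, with 0 called, against 2000 higher of all 3719 genes tested. Only these 11 of 33 genes passed the filter. A gene at 0 in WT could pass it only through HET or HOM libraries, so the filter itself favoured this direction. Cox6b1, a subunit of complex IV, and Ndufs7, which carries an iron-sulfur cluster of complex I, were at 0 in all 3 WT pancreata, and stood at 111 ± 93.7 and 11.8 ± 10.4 CPM in HOM (SD, n = 3). The floor of the WT group is 9.00 CPM (3 counts of 333179).

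Genes for the upkeep of mitochondrial DNA were counted in all pancreata at a summed 123 to 1383 CPM, against 155 to 216 CPM in the livers. The lowest values, 123 and 167 CPM, were those of HET 11 and HET 16. Of 4 tested genes 2 had higher and 2 lower fitted values in HOM than in WT. Polg, the polymerase that copies mitochondrial DNA, stood at 403 ± 225 CPM in HOM and 94.6 ± 45.5 CPM in WT (log2 fold change 2.27 ± 2.20 SE, edgeR adjusted p = 1).

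The transfer RNAs of the organelle, which are short and carry no poly(A) tail when mature, were counted at 80 in all livers and 388 in all pancreata, on 10 of 22 genes in each tissue. They made up 0.546% to 1.77% of the mitochondrial counts in liver and 0.787% to 26.7% in pancreas. The highest shares were those of HET 10 (26.7%), WT 11 (21.3%) and WT 12 (20.3%). In pancreas mt-Tw, the transfer RNA for tryptophan, was the only one to pass the filter, at 250 ± 215 CPM in WT, 54.1 ± 93.1 CPM in HET and 28.5 ± 49.3 CPM in HOM (edgeR adjusted p = 1 for HOM against WT).

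The genes whose level followed members most closely were sought over all libraries of a tissue by the Pearson correlation of log2(CPM + 10), as a description. In liver (n = 7, 2191 genes) those nearest to mt-Nd5 were Ftl1 (0.96), Atg101 (0.95) and Tbc1d20 (0.95), and those nearest to mt-Rnr2 were Atp5d (0.95) and Pacsin3 (0.93). In pancreas (n = 11, 2878 genes) Epb41l5 (0.88) and Olfr920 (0.88) were nearest to mt-Nd5, and Agpat4 (0.86) and Srrm2 (0.85) to mt-Rnr2. Between the members themselves mt-Nd5 and mt-Rnr2 correlated at 0.62 in liver and −0.18 in pancreas. All points share the depth and the make-up of their library.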

How the data were processed

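Per the labels' protocols, TRI reagent was used for RNA extraction and the libraries follow MARS-seq adapted to bulk RNA. The submitters' processing notes name cutadapt, STAR and the build mm10, with no versions. The counting tool, the use of strand, the collapsing of molecular barcodes and the treatment of reads that match several places are not given in the sources used here. Deposited were, for each tissue, 1 table of whole-number counts per gene, called corrected by the authors with no statement of what was corrected, so the tests hold only if the values are still close to counts. All 18 columns matched a library of the labels, 0 were left over, and no 2 libraries were identical.

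Levels are CPM over all counts of a library. Tests used edgeR 4.0.16 (R 4.3.3): filterByExpr by group, TMM, and a robust quasi-likelihood F test with Benjamini-Hochberg adjustment over all genes tested and a threshold of 0.05. The 11 pancreata were fitted together with genotype and sex (7 residual degrees of freedom), the 7 livers with genotype (5). Members below the filter were taken from a fit of all genes with a count (20274 in pancreas, 18552 in liver). Sequences and positions came from GENCODE M21 transcripts (mm10), aligned with blastn 2.17.0 (word size 16). The fits were tested on simulated counts with each gene's mean over all libraries of the tissue and a common dispersion for all genes. Spread that differs between genes was thus not simulated, and the percentages cover only changed genes that passed the filter. For HET against WT in liver the test called 12.6% of genes changed 2-fold, 65.7% of those changed 4-fold and 100% of those changed 16-fold. For HET against WT in pancreas it called 0% at 2-fold to 64-fold.

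All 10 listed genes are named in every comparison, with up to 3 tested genes of smallest p from each other list and the 5 most similar genes of mt-Nd5 and mt-Rnr2, of which some are printed. The members and lists were chosen with earlier results of these data known. Alternatives were DESeq2 1.42.0, other scalings and filters, other covariates, a replicate block, and fits without single libraries. Leaving out HET 2 and HET 5 in liver was chosen after seeing the data.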

Additional observations from a re-analysis of the deposited data

Results flagged for a closer look

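The highest and lowest library of each group of 5 HET libraries was set against its nearest neighbour by Dixon's ratio (critical value 0.71). Of 26 groups of values tested, 4 had a library apart. Chance gives about 1 in 20 for normally distributed values, which CPM from few counts need not be. The groups are not independent either, since mt-Nd2 held 57.7% of the counts of the 10 genes in HET 15. So 4 of 26 is not read as an excess. All 4 were HET pancreata. The level of mt-Nd2 was 1156 CPM in HET 15, with the next library at 205 CPM. The level of mt-Cytb was 687 CPM in HET 9, with the next at 186 CPM, and rested on 34 counts. The level of mt-Co1 was 58.2 CPM in HET 16, with the next at 15.1 CPM. The 10 genes together took 0.2005% of all counts in HET 15, with the next library at 0.0995%.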

How the results depend on the processing

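The number of members called by edgeR was 0 in all 4 comparisons under every alternative run, leaving out each library in turn included (lowest and highest count 0). For HET against WT in pancreas this says nothing of stability, since on simulated counts that test called 0% even at 64-fold. HOM against WT and HOM against HET come from the same fit and were not simulated. Their 0 members called are therefore not read as stability either. The lowest adjusted p of any member over the alternatives was 0.584 for HOM against WT, 0.0901 for HET against WT, 0.226 for HOM against HET and 0.140 in liver. The differences between group means in messenger sum, ribosomal RNA sum and ribosomal share moved by less than the spread between libraries. That spread is wide, and signs could still change. The messenger sum of HOM minus HET ran from −280 to 271 CPM when each library was left out in turn. Several log2 fold changes of single genes changed sign, and the cause was not tested. In HOM against WT this happened only with the replicate block and when WT 11 or WT 12 was left out. With the replicate number as a block mt-Nd4 was at 1.64, mt-Nd5 at 0.16, mt-Cytb at 3.57, mt-Rnr1 at 1.87 and mt-Rnr2 at 1.96 in HOM against WT, mt-Nd1 at 0.58, mt-Cytb at 1.84 and mt-Rnr1 at 1.48 in HET against WT, mt-Nd5 at 3.62, mt-Cytb at 1.73 and mt-Rnr1 at 0.39 in HOM against HET, and mt-Rnr2 at 0.043 in liver. The numbers do not pair the libraries: same-numbered libraries deviated together with correlations of −0.05 to 0.08 in pancreas and −0.03 to −0.02 in liver, and WT 11 and HET 11 differ in sex.

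In HET against WT mt-Nd1 was at 0.066 with DESeq2 and 0.066 with its size factors and at 0.11 without a filter. There mt-Rnr1 was at 0.21 with DESeq2 and with its size factors, 0.18 without a filter, 0.063 without sex and 0.040 in a fit of the 2 groups only, mt-Cytb at 0.12 without sex, and mt-Co1 at −0.22 with a mean of at least 10 CPM. In HOM against HET mt-Nd5 was at 0.76 with total counts, 0.12 without a filter, 0.15 with a mean of at least 10 CPM, 0.44 without sex and 0.48 without HET 11 and HET 16, and mt-Cytb at 1.13 with total counts, 0.82 without HET 11 and HET 16 and 0.083 in a fit of the 2 groups only. In liver mt-Cytb was at 0.043 without HET 2 and HET 5.

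Leaving out each library in turn gave ranges that crossed 0 for some genes. They were −3.002 to 1.29 for mt-Nd1 and −1.86 to 0.52 for mt-Cytb in HOM against WT, with mt-Nd6 (main 1.29) at −1.31 to −1.13. In HET against WT they were −0.90 to 3.09 for mt-Nd1, −1.13 to 0.14 for mt-Nd2, −1.52 to 0.91 for mt-Cytb and −1.88 to 0.67 for mt-Rnr1, with mt-Co1 at −0.36 to −0.25. In HOM against HET they were −0.93 to 0.54 for mt-Nd5 and −1.66 to 0.61 for mt-Cytb, and in liver −0.45 to 0.20 for mt-Cytb and −0.38 to 0.066 for mt-Rnr2. Genes called among all genes changed with the method: 12, 199, 62 and 16 with DESeq2 where the main edgeR fit called 0. In HOM against WT some edgeR alternatives also called genes. They called 18 with the replicate block, 13 without HET 11 and HET 16, 5 in a fit of the 2 groups only and 4 without HET 16. The pancreas libraries had 48 to 1031 counts on the 10 genes, so single members often rest on fewer than 10 counts.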
